A study of Mus musculus with 16 samples.

Results

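Cytosolic ribosomal protein genes encode the proteins that, with ribosomal RNA, build the large and small subunits of the ribosome. The members described here are the protein-coding genes of GENCODE release M21 (genome build mm10) whose symbols are Rpl or Rps with a number and at most 1 of the letters a, x or l, together with Rplp1, Rplp2 and Rpsa. Rpl3, Rpl29 and Rpl34 were left out by the rule, and a mean level of at least 1 CPM was required. CPM is the read count of a gene in 1000000 gene counts of its library. This minimum used unscaled library totals, and all levels given below were computed after libraries were scaled to each other. Of 79 matching symbols, 72 were kept out of 38924 gene IDs, 41 of the large and 31 of the small subunit. The lowest member was Rps27l with 8.28 CPM, and the IDs just outside the minimum were Rpl24 and Rpl3l with 0.46 CPM each, Rpl39l with 0.14 CPM and Rpl10l with 0 counts. Because the rule goes by symbol, Rplp0, Rps3a1 and Fau, which also encode ribosomal proteins, are no members.

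The counts come from mRNA sequencing of 16 mouse brain libraries of tissue punches labelled as ventral posterolateral thalamic nuclei, a relay for touch and pain signals. The series concerns RGS4, a protein that shortens signalling by G proteins, and its part in lasting pain. There were 4 groups of 4 libraries, namely wild type (WT) naive, RGS4 KO naive, WT after CFA and RGS4 KO after CFA. The labels do not spell out CFA, an abbreviation commonly used for complete Freund's adjuvant, which causes lasting inflammation. All 16 libraries share the protocol, in which 4 punches of 12 gauge from the left and right sides of 2 mice were pooled into 1 library. The series text speaks of floxed Rgs4 mice that received Cre through a viral (AAV) vector, whereas the sample labels give only a KO genotype. The sources used here state neither the promoter of Cre nor strain or age. Sex is labelled female for every sample, whereas the protocol speaks of male mice. Xist, an RNA expressed in female cells, lay between 560 and 750 CPM over all 16 libraries, which goes with the label.

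The targeted gene, Rgs4, was not called between labels. Its level was 80.9 ± 3.66 CPM in WT naive, 81.3 ± 2.74 in naive libraries labelled KO, 89.3 ± 6.66 in WT after CFA and 84.1 ± 5.50 in CFA libraries labelled KO (mean ± SD, n = 4 each), with adjusted p = 0.979 for naive and 0.519 for CFA libraries (edgeR's quasi-likelihood test). The counts are per whole gene, so an excised exon was not examined, and these groups are called libraries labelled KO throughout. The libraries held between 18.1 M and 78.8 M gene counts each. Of 18 genes listed as markers of thalamic relay neurons, Slc17a6 lay between 432 and 535 CPM and Tcf7l2 between 110 and 179 CPM. Rora lay between 77.7 and 92.6 CPM and Slc17a7 only between 2.81 and 11.6 CPM. Ttr, a marker of choroid plexus, lay between 0.41 and 1.85 CPM. All 16 libraries carry the same tissue label, so the site of the punches was not tested.

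Ribosomal proteins are made in near-equal numbers, and surplus copies are degraded. Their mRNAs are among the most abundant of the cell, and most begin with a run of pyrimidines, the TOP motif, through which growth signals passed by mTORC1 set how strongly they are translated. Messenger RNA counts as measured here show the amount of these mRNAs and not their translation. In neurons, mRNAs of ribosomal proteins are known to be present in processes as well as in cell bodies.

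At the start of the mRNA, a feature that the rule did not use was more frequent in members than in all genes, though most members with a window lacked it. RefSeq promoter windows of 250 bases before and 50 from the start (GRCm38.p6) were matched by symbol for 54 of the 72 members. A run of at least 8 pyrimidines touching the annotated start, with a tolerance of 2 bases, was found in 19 of these 54 genes (35.2%), against 7.98% of 27025 genes in the same table. For runs of at least 10 the shares were 27.8% and 4.30%. The median run over the start was 3 bases over the windows of members and 2 over all windows. The windows below show 15 bases on each side of the start, from 5′ to 3′ on the gene's strand, with the pyrimidine run over the start in capitals. The first 6 were chosen to show the run in members of both subunits, and the last 3 because Rps7 and Rps12 carry results given further on and Rpl4 is among the 3 highest members per length.
Rps6 (chr4:86857353-86857382, minus strand): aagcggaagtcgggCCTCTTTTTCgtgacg
Rps10 (chr17:27635230-27635259, minus strand): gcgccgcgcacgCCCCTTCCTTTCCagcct
Rps18 (chr17:33955651-33955680, minus strand): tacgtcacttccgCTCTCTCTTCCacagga
Rpl14 (chr9:120571502-120571531, plus strand): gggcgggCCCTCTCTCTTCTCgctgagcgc
Rpl15 (chr14:18270972-18271001, minus strand): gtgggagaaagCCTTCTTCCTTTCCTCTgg
Rplp2 (chr7:141447636-141447665, plus strand): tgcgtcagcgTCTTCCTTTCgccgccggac
Rps7 (chr12:28635939-28635968, minus strand): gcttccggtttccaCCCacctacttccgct
Rps12 (chr10:23787195-23787224, minus strand): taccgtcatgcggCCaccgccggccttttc
Rpl4 (chr9:64173372-64173401, plus strand): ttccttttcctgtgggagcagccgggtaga
In Rps7 the run over the annotated start is 3 bases long, in Rps12 it is 2, and in Rpl4 there is none, and the annotated start may lie some bases from the one used in this tissue.

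Other motifs were searched on both strands over the whole window. CCGGAAG, a core bound by ETS factors, was present in 23 of 54 members (42.6%) and in 9.93% of all genes. GGGCGG, bound by SP1, was present in 61.1% of members and 38.2% of all genes, and TCTTTC, which can overlap a pyrimidine run, in 40.7% and 24.5%. AAGATGGC, bound by YY1, was found in 9.26% of members and 3.19% of all genes. TATAAA was the only one of the 5 that was less frequent in members, with 9.26% against 15.7%. These matches describe letters in the windows and are no evidence of binding. The 19 members with a run of at least 8 had a median log2 change of 0.01 between genotypes in naive libraries and of -0.02 after CFA in WT, and the 35 members with a window and no such run had 0.01 and -0.04.

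Levels of different genes were compared only per length, as CPM divided by the merged exon length in kb. Levels per kb spread over more than an order of magnitude. The highest were Rplp1 with 391 ± 22.4 CPM per kb, Rps15 with 250 ± 10.1, Rpl4 with 233 ± 5.97, Rpl8 with 177 ± 5.18 and Rps21 with 154 ± 7.98 (mean ± SD over 16 libraries). Rplp1 is an acidic protein of the stalk that recruits elongation factors, Rpl4 lines the tunnel through which the nascent chain leaves, and Rpl8 lies close to the peptidyl transferase centre. The lowest were Rps27l with 10.2 ± 0.57 CPM per kb, Rpl35 with 11.2 ± 0.94, Rpl18 with 14.2 ± 0.61, Rps19 with 14.6 ± 0.45 and Rps27 with 14.8 ± 1.21. Rps27l is a paralog of Rps27, and Rpl35 sits at the exit of the tunnel. In the small subunit Rps4x with 97.2 CPM per kb and Rps29 with 86.7 were also among the 5 highest. In the large subunit Rpl36 with 121 and Rpl38 with 118 CPM per kb, both short mRNAs, followed Rpl8, and only Rpl18 and Rpl35 lay below Rpl12 with 17.6.

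The order depends on which length is used. With the principal transcript in place of all exons, the median over members rose from 42.9 to 106 CPM per kb. Rplp1 remained first, and Rpl35 and Rps27l remained the last pair with 14.7 and 16.6 CPM per kb. Rps19 moved from rank 69 to 34 with 108 CPM per kb and Rpl18 from rank 70 to 44 with 84.7, since their merged exons of 4685 and 4043 bases far exceed principal transcripts of 633 and 679 bases. Neighbours in the middle of the order differ by less than their SD over libraries, as with Rpl31 and Rpl9 at 42.9 ± 1.60 and 42.9 ± 1.51 CPM per kb.

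**Figure D1:**
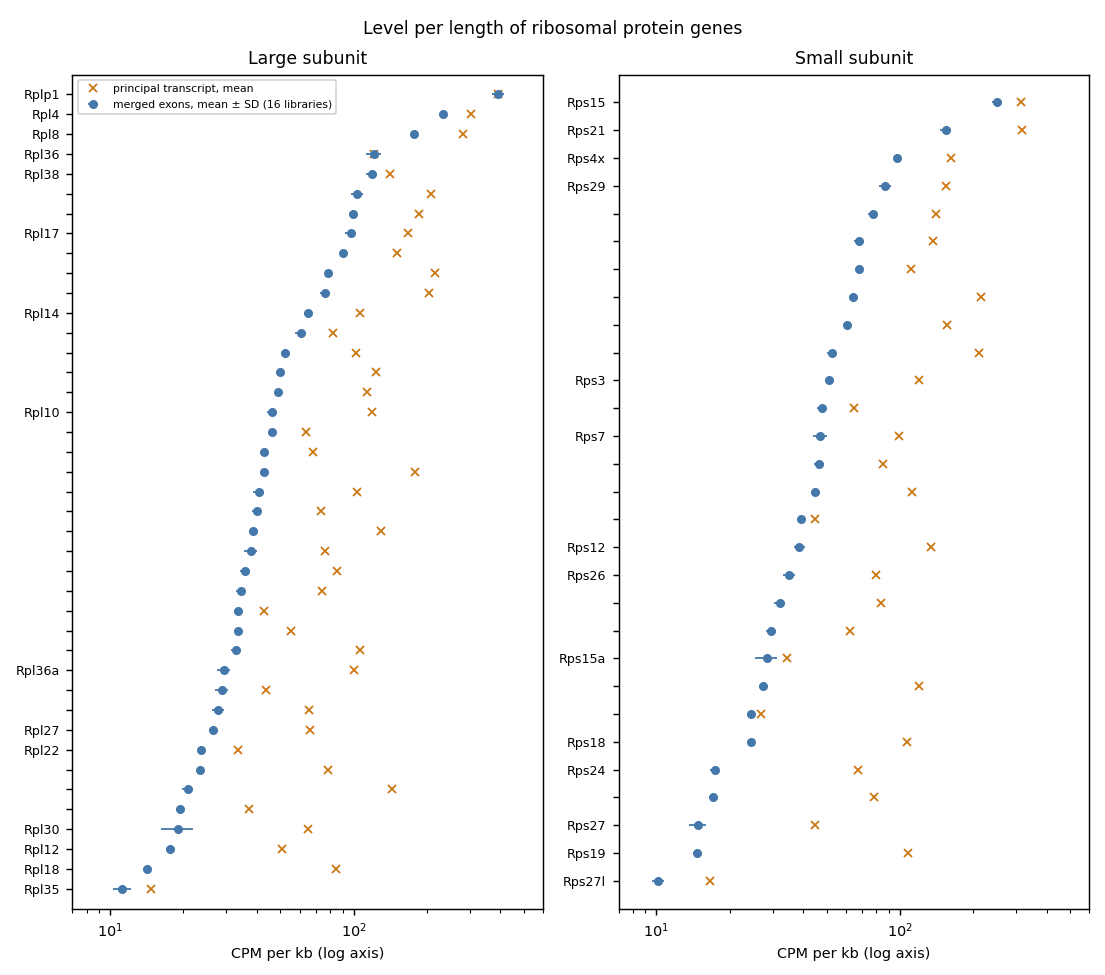
Level of 70 of the 72 members in CPM per kb (genes named by rule are labelled) on a log axis, large subunit left and small subunit right. Blue points are means over 16 libraries with SD by merged exon length, and orange crosses are means by principal transcript length. Rplp1 lies highest at 391, and Rpl35 and Rps27l lie lowest by either length.

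Unique counting limits these levels, because members share sequence with other genes, processed pseudogenes among them. Of the 50-base stretches in each principal transcript, a median of 53.2% also occurred in a transcript of another annotated gene, with 98.6% in Rps27, and 40 of 72 members had over 50%. These other genes are not all copies, and for Rps15a they include unrelated coding genes such as Dicer1. The line for alignments that are not unique held 24.1% to 26.0% of the listed total per library. Whether it counts a read once or once per aligned site was not examined. Across the 72 genes the shared percentage had a Spearman rho of -0.32 with CPM, -0.04 with the level per kb of principal transcript and 0.10 with the spread between libraries. These are descriptions across genes, which share libraries and are not independent replicates. Rpl24 encodes a core protein of the large subunit, yet its ID held 0.46 CPM.

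Summed over all members the level varied little between libraries. The sum was 7670, 7269, 7073 and 6995 CPM in the WT naive libraries 1 to 4, and 7151, 7338, 7355 and 7407 CPM in the naive libraries 5 to 8 labelled KO. In the WT CFA libraries 9 to 12 it was 7223, 6951, 6902 and 7239 CPM, and in the CFA libraries 13 to 16 labelled KO it was 7119, 7367, 7201 and 7354 CPM. WT naive library 1 was the highest of all and the WT CFA libraries 10 and 11 were the lowest, and every group overlapped the others. Group means were 7252 ± 302 CPM, 7313 ± 112, 7079 ± 177 and 7260 ± 120 in that order (mean ± SD, n = 4 each). Members held 0.687% to 0.766% of the counts of a library. In tissue punches, fewer cells of a type and less RNA per cell cannot be told apart.

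The large subunit genes summed to between 3933 and 4381 CPM and the small subunit genes to between 2967 and 3289 CPM. Their ratio kept within 1.31 to 1.36 in the 16 libraries, a narrower range than that of either sum.

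**Figure D2:**
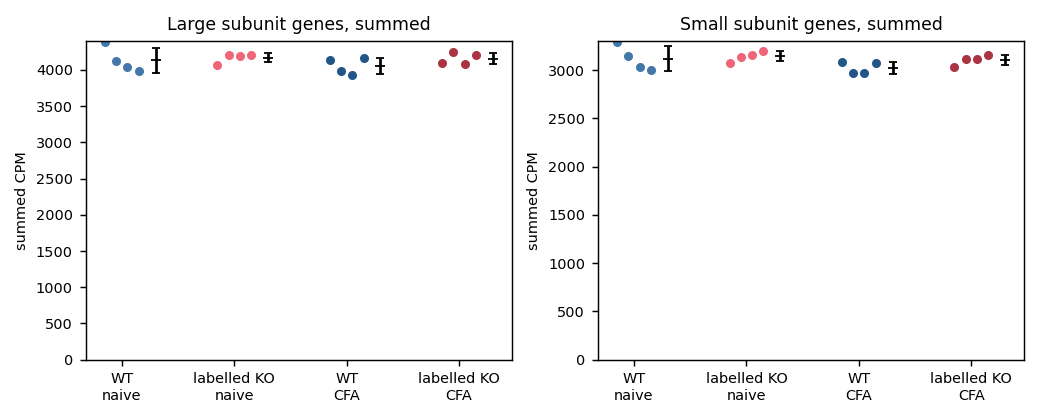
Summed CPM of the 41 large subunit genes (left) and the 31 small subunit genes (right), 1 point per library with the mean ± SD of each group of 4 beside it, on axes that start at 0. All 16 libraries lie between 3933 and 4381 CPM (large) and between 2967 and 3289 CPM (small), and the groups overlap.

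Between genotypes, no member passed the threshold of an adjusted p under 0.05 in naive or in CFA libraries (edgeR's quasi-likelihood test, Benjamini-Hochberg adjustment over 18350 tested genes). In naive libraries the count was 0 of 72 members against 1.45% of all tested genes, and 7 members (9.72%) against 13.8% of all genes had an unadjusted p under 0.05. In CFA libraries it was 0 of 72 against 1.6%, and 10 members (13.9%) against 12.3% had an unadjusted p under 0.05. These counts hold for the members only and depend on the rule. Rpl3, which the rule left out by name, was called in both comparisons, and Rpl34, also left out by name, in naive libraries. Rplp0, no member because of its symbol, was called in both. The counts of 0 thus partly reflect which genes were left out. DESeq2 called 1 member in each, Rplp1 as lower in naive and Rps7 as higher in CFA libraries. The median log2 change of members was 0.01 in naive libraries, with 45 positive and 27 negative, and 0.04 in CFA libraries, with 61 positive and 11 negative, and the medians of all tested genes were 0.00 in each. The sign in naive libraries rested on single choices, as the median was -0.01 without naive libraries 7 and 8 labelled KO and also with no scaling factor.

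How tightly the data bound the changes is shown by the intervals. In naive libraries the 95% interval of the fold between genotypes lay within 1.2-fold in either direction for 71 of 72 members, all but Rpl30, and in CFA libraries for 70, all but Rpl30 and Rps15a. The median size of the log2 change in naive libraries was 0.03 for members and 0.07 for all tested genes. The median SE was 0.04 and 0.07 in that order, so these sizes were not compared at equal precision.

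Averaged over both treatments, 3 of 72 members were called between genotypes, 2 higher and 1 lower, against 3.73% of all tested genes (1.74% higher and 1.99% lower). The share of members, 3 in 72, is near that background. Rpl3 and Rpl34, which the rule left out by name, and Rplp0, no member because of its symbol, were also called in this comparison. The unadjusted p was under 0.05 in 14 members (19.4%) and in 14.3% of all genes. DESeq2 called 4 members, these 3 and Rps3. The median log2 change was 0.03, with 56 members positive and 16 negative.

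Rps7, a small subunit protein needed for maturation of 18S ribosomal RNA, had the lowest p of any member. It lay at 98.1, 87.3, 87.4 and 87.8 CPM in WT naive and at 96.6, 101, 103 and 97.4 CPM in naive libraries labelled KO. After CFA it lay at 88.6, 90.8, 91.1 and 89.4 CPM in WT and at 93.9, 107, 97.2 and 103 CPM in libraries labelled KO. The groups did not overlap after CFA, and in naive libraries only WT library 1 reached into the group labelled KO. Rps7 rose in libraries labelled KO by 0.15 ± 0.03 (log2 ± SE) in the average comparison, which is 1.11-fold (adjusted p = 0.00522, edgeR).

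The call for Rps7 ended when reads of its copies were counted with it. Gm6472, a processed pseudogene that shares 50-base stretches with Rps7, moved the other way. It lay at 13, 16.2, 15.7 and 12.5 CPM in WT naive and at 10.6, 9.86, 8.72 and 9.79 CPM in naive libraries labelled KO. After CFA it lay at 17.5, 13.3, 13.7 and 17.6 CPM in WT and at 11.2, 9.37, 11.7 and 6.20 CPM in libraries labelled KO. No library labelled KO reached the lowest WT library, and the average change was -0.62 on the log2 scale (adjusted p = 0.00763, edgeR). Another copy, Gm9493, at 0.05 to 0.35 CPM in WT and 0.56 to 0.95 CPM in libraries labelled KO, was called higher (log2 1.89, adjusted p = 0.000145). With the counts of all 7 copies added, Rps7 lay at 105 ± 4.70 CPM in WT naive, 110 ± 2.75 in naive libraries labelled KO, 106 ± 1.26 in WT after CFA and 111 ± 4.52 in CFA libraries labelled KO. Its average change was then 0.07 (log2) with adjusted p = 0.147, so the call did not hold. In all, 337 tested genes share such stretches with a member. Of these, 12 were called in the genotype average (3.56%, 5 higher and 7 lower), against 3.73% of all tested genes.

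Rpl17, whose protein lines the exit tunnel, was the other member called higher. It lay at 134, 128, 127 and 122 CPM in WT naive, 141, 135, 139 and 132 CPM in naive libraries labelled KO, 123, 118, 118 and 128 CPM in WT after CFA and 126, 130, 127 and 136 CPM in CFA libraries labelled KO. The groups overlapped in each treatment. The average change was 0.10 ± 0.03 (log2 ± SE, adjusted p = 0.0402, edgeR). The call was lost on leaving out any of libraries 2 to 7, 9 to 11, 14 or 16, with adjusted p up to 0.0882. With its 26 copies counted in, the change was 0.09 (adjusted p = 0.0397).

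Rplp1, the stalk protein, was the member called lower. It lay at 224, 201, 206 and 204 CPM in WT naive and at 180, 186, 197 and 188 CPM in naive libraries labelled KO, with no overlap. After CFA it lay at 186, 203, 190 and 204 CPM in WT and at 187, 189, 184 and 196 CPM in libraries labelled KO, with overlap. The average change was -0.10 ± 0.03 (log2 ± SE, adjusted p = 0.0477, edgeR), and that in naive libraries alone was -0.15 ± 0.04 with adjusted p = 0.0585. The average call was lost on leaving out any of libraries 1, 3 to 6, 8, 10 or 12 to 15, with adjusted p up to 0.111. With its 5 copies counted in, the average change was -0.11 (adjusted p = 0.0363). Its partner in the stalk, Rplp2, had changes of -0.03 in naive and 0.05 in CFA libraries (log2).

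**Figure D3:**
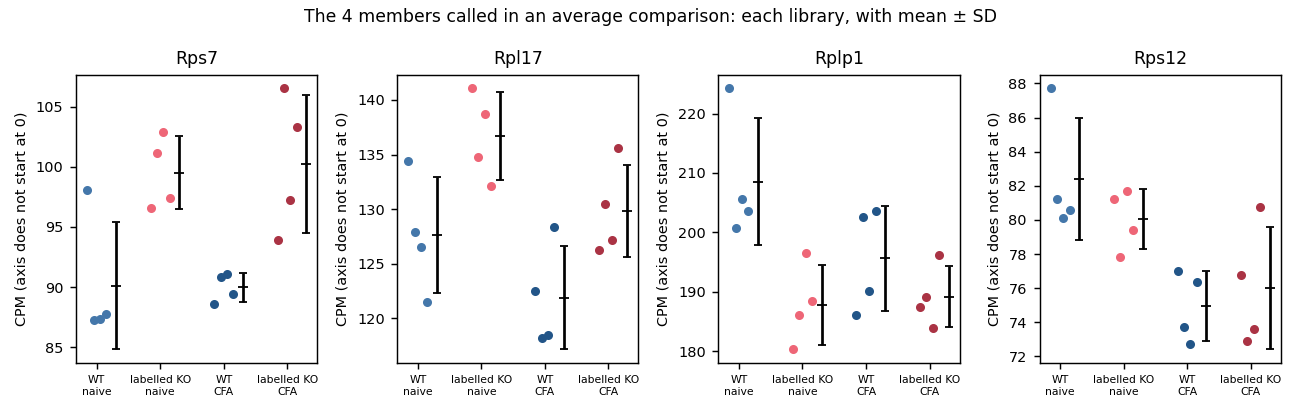
CPM of Rps7, Rpl17, Rplp1 and Rps12 in each of the 16 libraries by group, with the mean ± SD of 4 libraries in black; the vertical axes differ and do not start at 0. Rps7 and Rpl17 lie higher and Rplp1 lower in libraries labelled KO in the average of both treatments, and Rps12 lies lower after CFA.

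The groups of libraries did not overlap between genotypes for 2 higher members and 1 lower member in naive punches, against 7.23% of all tested genes, and for 3 higher members in CFA punches (Rps7, Rps26 and Rpl37a), against 8.03%. The higher pair in naive punches was Rpl22 and Rpl4. Rpl22, which also binds RNA outside the ribosome, lay at 65.6 to 67.9 CPM in WT and 68.7 to 74.2 CPM in libraries labelled KO, a change of 0.09 ± 0.03 (adjusted p = 0.143). Rpl4 lay at 435 to 474 and 475 to 479 CPM, a change of 0.07 ± 0.03 (adjusted p = 0.27). In CFA punches Rps26, at the mRNA exit of the small subunit, lay at 48.6 to 53.5 CPM in WT and 53.6 to 58.9 CPM in libraries labelled KO, a change of 0.15 ± 0.05 (adjusted p = 0.129). None of these passed the threshold.

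The next question was how the genes answered CFA. In WT no member was called (0 of 72, against 2.23% of all tested genes), and 7 members (9.72%) against 17.6% of all genes had an unadjusted p under 0.05. In libraries labelled KO no member was called either (0 of 72, against 0.185%), with 3 members (4.17%) against 7.81% at an unadjusted p under 0.05. Rpl29, which the rule left out by name, was called lower in both comparisons, so these counts of 0 also depend on the rule. DESeq2 called Rps12 in WT and no member in libraries labelled KO. The median log2 change was -0.04 in WT, with 12 positive and 60 negative, and -0.01 in libraries labelled KO, with 31 positive and 41 negative. The median in WT ranged from -0.06 to -0.01 when each library was left out. The 95% intervals lay within 1.2-fold for 69 members in WT, all but Rpl30, Rps15a and Rps27, and for 70 in libraries labelled KO, all but Rpl30 and Rps15a.

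Rps12, a protein of the beak of the small subunit, was the 1 member called in the CFA average, against 1.81% of all tested genes (1.08% higher and 0.73% lower). It lay at 87.8, 81.2, 80.1 and 80.6 CPM in WT naive and 77.0, 73.7, 72.7 and 76.4 CPM in WT after CFA, with no overlap. In libraries labelled KO it lay at 81.2, 77.8, 81.7 and 79.4 CPM when naive and 76.8, 72.9, 73.6 and 80.8 CPM after CFA, where library 16 lay within the naive group. The average change was -0.11 ± 0.03 (log2 ± SE, adjusted p = 0.0442, edgeR), and the change in WT alone was -0.14 ± 0.04 (adjusted p = 0.0539). The average call was lost without any 1 of 12 libraries (1, 2, 5 to 7 and 9 to 15), with adjusted p up to 0.0915. It was also lost without naive libraries 7 and 8 labelled KO (adjusted p = 0.106) and with the counts of 22 genes that share 50-base stretches added (adjusted p = 0.0514), which together held 1.47 CPM and left the change at -0.10. Over all alternatives the change lay between -0.12 and -0.09. DESeq2 called Rps12 and Rps15a, both lower. The unadjusted p was under 0.05 in 11 members (15.3%) and in 14.6% of all genes.

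Other members with low p for CFA stayed above the threshold. In WT the groups did not overlap for 1 higher member (Rpl22) and 4 lower members (Rps12, Rps13, Rps18 and Rpl27), against 11.3% of all tested genes. Among them Rps18, in the head of the small subunit, lay at 60.6 to 64.6 CPM when naive and 56.6 to 60.0 CPM after CFA, a change of -0.10 ± 0.03 (adjusted p = 0.104). Rpl27 lay at 41.1 to 43.5 and 38.7 to 39.9 CPM, a change of -0.10 ± 0.03 (adjusted p = 0.132). In libraries labelled KO the groups did not overlap for 1 member, against 4.29%, namely Rpl10. Rpl10, an X-linked protein that joins the large subunit late, lay at 90.7 to 92.7 CPM when naive and 94.1 to 102 CPM after CFA, a change of 0.09 ± 0.04 (adjusted p = 0.61). In the same comparison Rpl36a changed by -0.11 ± 0.05 (adjusted p = 0.585), which does not pass.

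The difference between the CFA effects of the genotypes was tested as an interaction. No member was called (0 of 72, against 0.0654% of all tested genes, and 0 by DESeq2), and 1 member (1.39%) against 9.86% had an unadjusted p under 0.05. That member was Rps18, with -0.10 in WT, 0.04 in libraries labelled KO and an interaction of 0.14 ± 0.05 (log2 ± SE, adjusted p = 0.3). Rplp1 and Rps21 had interactions of 0.10 ± 0.06 and 0.12 ± 0.07, and Rpl22 of -0.08 ± 0.04, none of which passed. The median over members was 0.03, with 54 positive and 18 negative. It ranged from 0.0005 to 0.05 when each library was left out, so its size rested on single libraries.

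The comparisons can be set side by side gene by gene. Genotype changes in naive and in CFA libraries, which share no library, had the same sign in 46 members, 40 positive and 6 negative, with r = 0.25 and rho = 0.23 across 72 genes. CFA changes in WT and in libraries labelled KO were both positive in 6 and both negative in 35 members, with r = 0.25 and rho = 0.24. The genes are not independent, so these are descriptions without a test. Genotype and CFA comparisons share groups (WT naive, for example), and their values are therefore only listed. Rps26 changed by 0.15 with genotype after CFA and by -0.07 with CFA in WT, Rps2 by 0.09 and -0.07, and Rpl14 by 0.09 and -0.03 (log2).

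**Figure D4:**
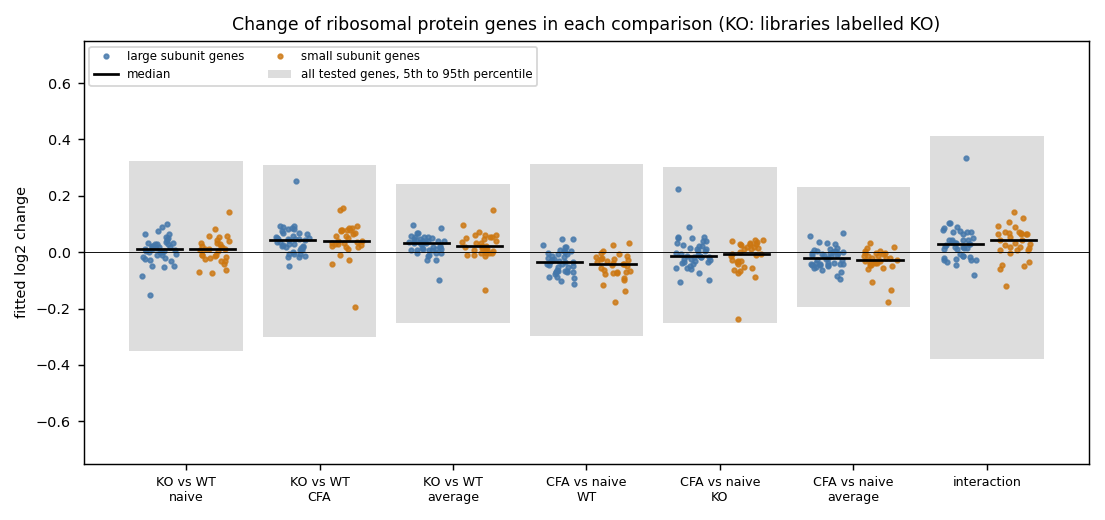
Fitted log2 change of each member in the 7 comparisons, large subunit genes in blue and small subunit genes in orange, with the median of each as a black line. Grey bars span the 5th to the 95th percentile of the 18350 tested genes. Nearly all members lie well inside the grey bars, which include genes of low counts with larger SE, and medians lie between -0.04 and 0.04.

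Members picked by role, after values were seen, had changes of both signs between genotypes. Over all 72 members most changes were positive between genotypes in CFA libraries (61) and negative with CFA in WT (60). Rpl5 and Rpl11, which carry 5S ribosomal RNA into the large subunit and can bind Mdm2, had genotype changes of -0.05 and 0.02 in naive and -0.01 and 0.05 in CFA libraries (log2). Rps6, the substrate of S6 kinase, changed by 0.03 and 0.08, and Rps3, at the entry of the mRNA channel, by 0.06 in each, with adjusted p = 0.106 in the average (edgeR) and 0.0365 by DESeq2. Rpsa, the laminin receptor precursor, changed by 0.04 and 0.06. Rps27a, which is made as a fusion with ubiquitin, changed by 0.02 and -0.03. The X-linked members Rpl10, Rpl36a, Rpl39 and Rps4x changed by -0.03, 0.08, 0.03 and -0.01 in naive libraries. The paralogs Rps27 and Rps27l changed by -0.18 and 0.03 with CFA in WT, with adjusted p = 0.19 for Rps27. None of the members named here was called by edgeR in these comparisons.

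Spread within groups separated a few members from the rest. The median SD of log2 CPM within groups was 0.0571 over members, against 0.0647 over tested genes of at least 8 CPM and 0.0525 over those of at least 50 CPM. Rpl30 had the largest spread, with an SD of 0.22. It lay at 72.4, 49.2, 51.4 and 58.5 CPM in WT naive, 49.8, 56.2, 49.5 and 62.5 in naive libraries labelled KO, 66.4, 59.2, 40.5 and 48.0 in WT after CFA and 65.2, 58.8, 62.4 and 68.0 in CFA libraries labelled KO. Its libraries thus range 1.79-fold with all groups overlapping, and 79.2% of its 50-base stretches are shared, most visibly with Gm12191, a processed pseudogene at 13.5 CPM. Rpl35 followed with an SD of 0.12, which came largely from library 14 at 17.4 CPM, the others being at 12.1 to 15 CPM.

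Rps15a, also with an SD of 0.12, ran from 136 to 205 CPM. It lay at 194, 205, 179 and 195 CPM in WT naive, 187, 183, 163 and 201 in naive libraries labelled KO, 171, 177, 191 and 174 in WT after CFA and 152, 136, 180 and 158 in CFA libraries labelled KO. The change with CFA was -0.24 ± 0.08 in libraries labelled KO (adjusted p = 0.407) and -0.18 ± 0.05 in the average (adjusted p = 0.125, edgeR). DESeq2 called the average with adjusted p = 0.0271, as did edgeR without CFA library 15 labelled KO (adjusted p = 0.0293). The principal transcript used for Rps15a, 5179 bases long, is the longest of any member and has the length of its longest coding transcript. Principal transcripts were picked by annotated rank, then by a RefSeq match, and then by greatest length. The steadiest members were Rpl4 and Rpl22, with SDs of 0.03 each, and Rps3 with 0.03.

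Within groups the members rose and fell together from library to library. Over 2556 pairs the mean correlation of deviations from the group means was 0.49, and 95.5% of pairs were positive. The mean was 0.48 within the large subunit, 0.51 within the small subunit and 0.48 across the subunits. Over all pairs of tested genes of at least 8 CPM it was 0.0042. That set was not matched to the members in mRNA length. Other short mRNAs moved with the members too, with a median r of 0.26 with the member mean in the shortest of 5 length groups. The correlation with the mean of the other members was above 0 for 71 of 72 members and above 0.5 for 61. Rps27a with 0.94, Rpl14 with 0.93 and Rps10 with 0.91 were highest, and Rps15a with -0.22 was the single negative member. The points are 16 libraries with 12 degrees of freedom within groups, and the pairs share these libraries.

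The shared movement was small in size. The mean deviation of members was 0.09 (log2) in WT naive library 1, the largest of all, and -0.05 in WT naive library 4 and in WT CFA library 11. WT CFA libraries 9 and 12 stood at 0.04 each. The gap between WT naive libraries 1 and 4 exceeded the median log2 change of members in each of the 7 comparisons.

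**Figure D5:**
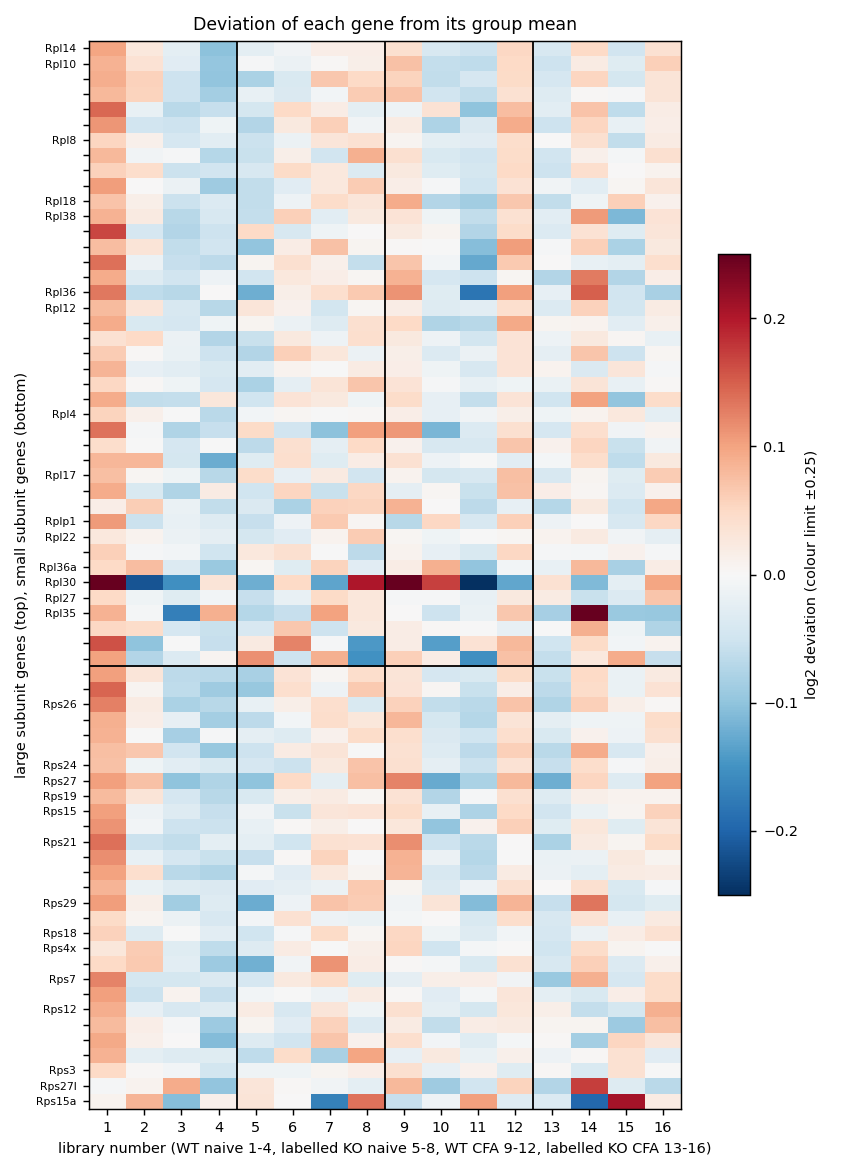
Deviation (log2) of 70 of the 72 members (genes named by rule are labelled) from the group mean in 16 libraries, with large subunit genes above and small subunit genes below the line, each sorted by correlation with the other members. Red is higher and blue lower, and values of Rpl30 and Rpl35 beyond 0.25 take the end colour. WT naive library 1 is red in nearly all rows, and Rps15a in the last row does not follow.

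The genes outside the members whose within-group deviations most resembled the mean of the members, over 16 libraries, were Rbx1 with r = 0.91, Pebp1 with 0.91, Ppia with 0.89, Naca with 0.88, Sod1 with 0.87, Fau with 0.87, Psmb1 with 0.85, Krtcap2 with 0.85, Hint1 with 0.85 and Lage3 with 0.84. Fau encodes a ribosomal protein of the small subunit fused to a ubiquitin-like protein, and Naca a chaperone that meets the nascent chain. Rbx1 is a subunit of ubiquitin ligases and Psmb1 of the proteasome. Many of these mRNAs are short, with a median of 1450 bases for the 40 genes ranked first (39 of them protein coding), against 3514 bases for the other 10657 protein-coding genes of at least 8 CPM. Members had a median of 910 bases, all by the longest coding transcript.

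Among other genes for ribosomal proteins, 12 of 13 listed were tested. In the genotype average 2 were higher, Rpl3 and Rpl34, and 1 was lower, Rplp0, against 1.74% higher and 1.99% lower of all tested genes. Rpl3 rose from 256 ± 11.5 to 300 ± 13.9 CPM in naive libraries and Rplp0, the base of the stalk that holds Rplp1 and Rplp2, fell from 96.3 ± 4.07 to 56.5 ± 8.25 CPM. Rpl29 fell in the CFA average by 0.65 on the log2 scale, from low levels of 2.20 to 5.41 CPM over all libraries. Sequence that these 4 genes share with others was not examined.

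Genes that build, load and regulate ribosomes were examined as lists, and their counts in the genotype average stand beside 3.73% of all tested genes (1.74% higher and 1.99% lower). For these and the next lists, the shares were 1.45% for genotype in naive libraries, 2.23% for CFA in WT and 1.81% for the CFA average. Of 56 ribosome biogenesis factors 0 were higher and 3 lower in the genotype average, Sdad1 (-0.22, adjusted p = 0.00162), Eif6, which keeps the large subunit from joining too early (-0.10, adjusted p = 0.0328), and Mdn1 (-0.11, adjusted p = 0.0469). Ddx10 fell in the CFA average by 0.14 (log2). Of 19 genes for RNA polymerase I and 5S transcription, Polr1b, a polymerase I subunit, rose in the genotype average by 0.21. Of 36 initiation factors Eif3j1 and Eif4b rose in that comparison by 0.25 and 0.08. The 11 elongation factors and 12 other TOP mRNAs had no called gene in any of the 7 comparisons. Of 23 genes of mTORC1 and TOP mRNA control 1 was called, Deptor, an inhibitor of mTOR, higher by 0.24 in naive libraries labelled KO.

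Of 15 chaperones and importers of ribosomal proteins Ipo7 rose with CFA in WT by 0.13. Of 76 mitochondrial ribosomal protein genes Mrpl3 rose by 0.28 in the genotype average, Mrpl35 rose by 0.17 with CFA in WT, and Mrps34 fell in the CFA average by 0.22. List medians in the genotype average lay at 0.08 for the 12 other cytosolic ribosomal protein genes, 6 of which had an unadjusted p under 0.05, 0.00 for biogenesis, 0.02 for polymerase I, 0.01 for initiation, 0.00 for elongation, 0.02 for other TOP mRNAs and 0.00 for mitochondrial ribosomal proteins, beside 0.03 for the members and 0.00 for all tested genes. That first list includes Rpl3, Rpl29 and Rpl34, which the rule left out of the members by name. The values 0.08 and 0.03 therefore depend on that choice.

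Cell type markers were measured beside these values, because a change in the mix of cells would alter summed levels. The summed level of 16 oligodendrocyte markers varied most, from 7105 to 9194 CPM in WT naive, 7487 to 12043 in naive libraries labelled KO, 9038 to 10286 in WT after CFA and 7524 to 10084 in CFA libraries labelled KO, with no marker called. The 13 neuron markers summed to 8473 to 8976, 8662 to 9681, 9385 to 9498 and 8719 to 9184 CPM in that order. WT CFA thus had neuron marker sums above those of WT naive, with Nefl and Nefm called higher, and member sums of 6902 to 7239 CPM against 6995 to 7670 CPM. Of 17 tested thalamic relay neuron markers Cbln1 and Ntng1 were called higher in naive libraries labelled KO and with CFA in WT, and Cbln1 lower in CFA libraries labelled KO and in the interaction. Prkcd was higher in the CFA average. Of 16 astrocyte markers Ntsr2 was lower in the genotype comparisons, Glul, Gjb6 and Fgfr3 were higher and S1pr1 lower in the CFA average. Gpr17 among 9 oligodendrocyte precursor markers was higher and Itm2a among 12 endothelial and mural markers lower in the CFA average. The 12 microglia markers and the 9 markers of choroid plexus and ependyma had none called. Of all tested genes, 1.45% were called between genotypes in naive and 1.6% in CFA libraries. The share was 2.23% with CFA in WT, 0.0654% in the interaction, 3.73% in the genotype average and 1.81% in the CFA average. The part of the markers in the values of the members was not tested.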

How the data were processed

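The authors deposited raw read counts per Ensembl gene, 1 table for each of 16 libraries. TopHat, DESeq2 and build mm10 are named, per the submitters' processing notes. The 5 closing lines of each deposited table have the form written by HTSeq. Neither annotation release nor strand setting is given in the sources used here. TRIzol and version 2 of the TruSeq kit, which does not mark strand, were used per the labels' protocols. Entries without a gene in those closing lines, 38.0% to 39.9% of the listed total, were left out.

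GENCODE M21 gave symbols for 37607 of 38924 IDs. edgeR 4.0.16 in R 4.3.3 was fitted to all 16 libraries (filterByExpr with minimum count 10, TMM factors, robust quasi-likelihood, 1 mean per group), leaving 18350 genes, a biological coefficient of variation of 6.10% and 7 contrasts. P-values were two-sided, Benjamini-Hochberg adjusted over all tested genes, and called under 0.05. The fit was tested on simulated data. DESeq2 1.42.0 was an alternative. CPM are on TMM-scaled totals, except in the minimum level for members, which used unscaled totals. Deviations for correlations are log2(CPM + 0.5) minus the group mean. Replicates differed beyond counting noise (chi-square per degree of freedom 3.55 to 13.7). The labels call the libraries biological replicates.

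Members and lists were chosen with earlier results of these data known. Members named are those called, the 2 of each subunit with the lowest p per contrast, the 5 highest and 3 lowest per length in each subunit, the 3 with the largest and the 3 with the smallest spread, and paralogs. Of other genes, up to 4 called per list and contrast and the 10 most like the members are named. Further members, grouped by role, and the copies of 6 members were chosen after values were seen. Genes counted in with a member are all annotated genes whose transcripts share a 50-base stretch with its principal transcript, which are mostly but not all pseudogenes for Rps7, Rpl17, Rplp1 and Rps12, and for Rps15a include unrelated coding genes. Promoter sequences are from RefSeq. Some genes are counted in the totals and not reported here singly. Alternatives were other scalings, no filter, DESeq2, only the groups compared, and each library left out. Others, chosen after seeing the data, were totals with no scaling, leaving out naive libraries 7 and 8 labelled KO (without which genes called between genotypes in naive libraries go from 266 to 92), principal transcript lengths and copies added.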

Additional observations from a re-analysis of the deposited data

Results flagged for a closer look

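In 7 of 136 groups of 4 libraries examined (30 named members and 4 summed quantities), 1 library stood apart from the other 3 by more than Dixon's 95% limit. Chance gives about 1 in 20 such groups, which is near the number found. CFA library 14 labelled KO stood high for Rpl35 with 17.4 CPM, where the other 3 lay between 13.4 and 13.5, for Rps29 with 67.5 CPM against 59.1 to 60.2, and for Rps27l with 9.25 CPM against 7.72 to 7.95. CFA library 13 labelled KO stood low for Rps19 with 68.2 CPM against 70.2 to 70.5. WT naive library 1 stood high for Rps7 with 98.1 CPM against 87.3 to 87.8 and for Rps12 with 87.8 CPM against 80.1 to 81.2. The summed level of large subunit genes was low in naive library 5 labelled KO, with 4074 CPM against 4195 to 4204.

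Without WT naive library 1, the change of Rps7 between genotypes in naive libraries was 0.19 (log2) with adjusted p = 0.0208 (edgeR), so that Rps7 was called there, while the call of Rps12 in the CFA average was lost.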

How the results depend on the processing

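Of 688 values for single genes under the alternatives, 629 kept their direction and side of the threshold, 39 lost and 20 gained a call, and 0 reversed. Most of these values had no call to lose, and the 4 calls of the main fit were less stable. In the averages Rps7 kept its call in 23 of 24 alternatives, Rplp1 in 13, Rpl17 in 11 and Rps12 in 10. The number of members called between genotypes in naive libraries became 1 with no filter on low counts, with DESeq2 and with no scaling factor (Rplp1 each time), and in CFA libraries 1 with no filter and with DESeq2 (Rps7). With CFA in WT it became 1 (Rps12) with upper-quartile factors, DESeq2, no scaling factor, only the groups compared, and without naive libraries 7 and 8 labelled KO. In the CFA average it became 2 with DESeq2, 0 on leaving out naive libraries 7 and 8 labelled KO, and 0 with copies added. With each library left out, the counts ranged from 0 to 1 for genotype in naive libraries, in CFA libraries, for CFA in WT and for the CFA average, from 1 to 3 for the genotype average (4 with DESeq2, which added Rps3), and were 0 throughout for CFA in libraries labelled KO and for the interaction. Rps7 in the genotype average was called in 23 of 24 alternatives (adjusted p from 0.000357 to 0.0214) and not with copies added (0.147). Rpl17 was lost with no scaling factor (0.0559) and without naive libraries 7 and 8 labelled KO (0.0618). The median level per kb was 101 by longest coding transcript and 106 by principal transcript. Medians of log2 change moved by less than 0.041, the SD of the median member deviation within groups. That limit is about as large as the largest main medians, 0.043 and -0.041, so a smaller median could change sign and pass. Left-out libraries gave -0.01 to 0.05 for genotype in naive libraries and 0.03 to 0.06 in CFA libraries. They gave -0.06 to -0.01 for CFA in WT, -0.02 to 0.00 for CFA in libraries labelled KO and 0.0005 to 0.05 for the interaction. No paired analysis was possible because library numbers run through the series and none is shared between groups. The least abundant member, Rps27l, had at least 150 counts in each library, and how depth limits the members was not tested.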

Other observations

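Within-group co-movement with the members followed mRNA length across genes. When 10657 other protein-coding genes of at least 8 CPM were put into 5 groups by the length of their longest coding transcript, the median correlation with the mean of the members was 0.26 in the shortest group (371 to 2042 bases), 0.12 in the next (2043 to 3034 bases), 0.03 in the middle, -0.04 in the fourth and -0.16 in the longest (5657 bases and more). Across these genes Spearman's rho between length and correlation was -0.44. The genes share the same 16 libraries and are not independent, so this is a description. RNA integrity values were not used here, and what the pattern stems from was not tested.

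For Rplp1 the processed pseudogene Gm11942, which shares 50-base stretches with it, was lower in libraries labelled KO by 2.31 on the log2 scale in the genotype average (adjusted p = 1.02e-06, edgeR). Its levels were 0.33 to 0.93 CPM in WT and 0.06 to 0.18 CPM in libraries labelled KO. Of the 337 tested genes that share such stretches with a member, 3.56% were called in that average, against 3.73% of all tested genes.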
